A study of Homo sapiens with 2 samples.

Results

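The heat shock response of human cells is read here at its resting state, in 10 genes that encode heat shock factors and the cofactors of the chaperones Hsp70 and Hsp90. They are HSF1, HSF2 and HSF4, the Hsp110 genes HSPH1, HSPA4 and HSPA4L, and the cofactor genes BAG3, STIP1, AHSA1 and PTGES3. They were picked by name from a list, with no threshold on a measured value, and all 10 of the 10 had a row among the 57736 genes of both libraries. RNA-Seq was done on HEK293T cells, a human line of embryonic kidney origin into which the SV40 large T antigen was introduced. The study as a whole asked which genes lie near the arrays of ribosomal RNA genes and how heat shock changes this. The libraries described here come from cells that received no treatment, labelled as wild type and grown at 37 °C, and poly(A)+ RNA was sequenced with reads of 50 nt. There was 1 group with 2 replicates, so the comparisons are between genes and between the libraries, and no gene was compared between conditions.

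Heat shock factors are transcription factors that bind inverted repeats of the letters GAA, called heat shock elements, in the promoters of chaperone genes. In resting cells HSF1 is held inactive by chaperones, and unfolded proteins release it to form trimers that switch these genes on. Hsp70 folds proteins in cycles of ATP binding and hydrolysis, and nucleotide exchange factors such as the Hsp110 proteins and BAG3 reset the cycle. STIP1, also called HOP, carries clients from Hsp70 to Hsp90, AHSA1 speeds up the ATPase of Hsp90, and PTGES3, also called p23, holds Hsp90 in its closed form.

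The libraries held 10593491 and 10104118 estimated counts in replicates 1 and 2. A count of 0 would have allowed a level of up to 0.283 and 0.297 CPM, the counts scaled to the library total, a limit that covers counting error only. Of 12 kidney marker genes 2 reached a TPM of 1 in each library, and the highest was LRP2 at a TPM of 9.12 ± 1.19 (SD, n = 2). Of 11 neuronal genes with a row 5 did so, with UCHL1 highest at 253 ± 3.36 (SD, n = 2). Of all protein-coding genes 63.7% reached this level. Neither kidney, the labelled tissue, nor neurons were thus matched by most of the genes on their list. The labels do not say whether the replicates are separate cultures, so the spread between them may be technical.

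Sequences matter here where they decide how far a gene's reads can be told apart from those of another gene. PTGES3 (chr12:57057125-57082192, minus strand, GRCh37) has 5 annotated processed pseudogenes, which are copies of its spliced mRNA set back into the genome. Below are 50 nt of its coding sequence, the length of 1 read, at chr12:57065550-57065599, beside the same stretch of each copy, all 5′ to 3′ in the sense of PTGES3. The window had to be identical in at least 1 copy and found without gaps, with at most 10 differences, in the most copies. Among such windows those identical in the fewest copies were kept, and the first along the gene was taken. Capitals mark bases that differ from PTGES3.
PTGES3: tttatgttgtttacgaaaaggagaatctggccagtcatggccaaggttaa
PTGES3P1: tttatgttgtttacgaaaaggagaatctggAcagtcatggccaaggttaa
PTGES3P2: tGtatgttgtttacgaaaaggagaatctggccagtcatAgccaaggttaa
PTGES3P3: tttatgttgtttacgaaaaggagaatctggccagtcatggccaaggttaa
PTGES3P4: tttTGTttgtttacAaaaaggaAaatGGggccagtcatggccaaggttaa
PTGES3P5: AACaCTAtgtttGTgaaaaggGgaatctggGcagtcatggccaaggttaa

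The copy PTGES3P3 (chr4:170712586-170712635, minus strand) is identical to PTGES3 in this stretch, and a read from it could not be placed by its letters. PTGES3P1 (chr1:89570183-89570232, minus strand) has 1 difference, PTGES3P2 (chr2:26045555-26045604, plus strand) has 2, PTGES3P4 (chr10:104605449-104605498, plus strand) has 7 and PTGES3P5 (chr10:110056017-110056066, plus strand) has 10. Of 191 coding stretches of 50 nt that lie within 1 exon, 86 (45.0%) were found unchanged in PTGES3P1 and 50 (26.2%) in PTGES3P3, and none in the other 3 copies. Shared stretches thus cover much of the coding sequence. Over all transcripts of PTGES3, untranslated parts included, 7.19% of the stretches of this length also occur in the transcripts of another gene.

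Levels were read as TPM, which scales all transcripts of a library to a fixed total and divides reads by transcript length and so can be set side by side between genes. All 10 genes reached a TPM of 1 in each replicate, a level called detected here, against 27.7% of all 57736 genes and 63.7% of 19391 protein-coding genes. The order ran from PTGES3 at 429 ± 15.6 to HSF4 at 12.0 ± 2.73 (SD, n = 2). The median of the 10 was a TPM of 123, and that of all 12345 detected protein-coding genes was 21.2. Among the latter the median percentile of the 10 genes was 90.8. Together the genes made up 0.167% and 0.157% of all TPM in replicates 1 and 2.

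**Figure D1:**
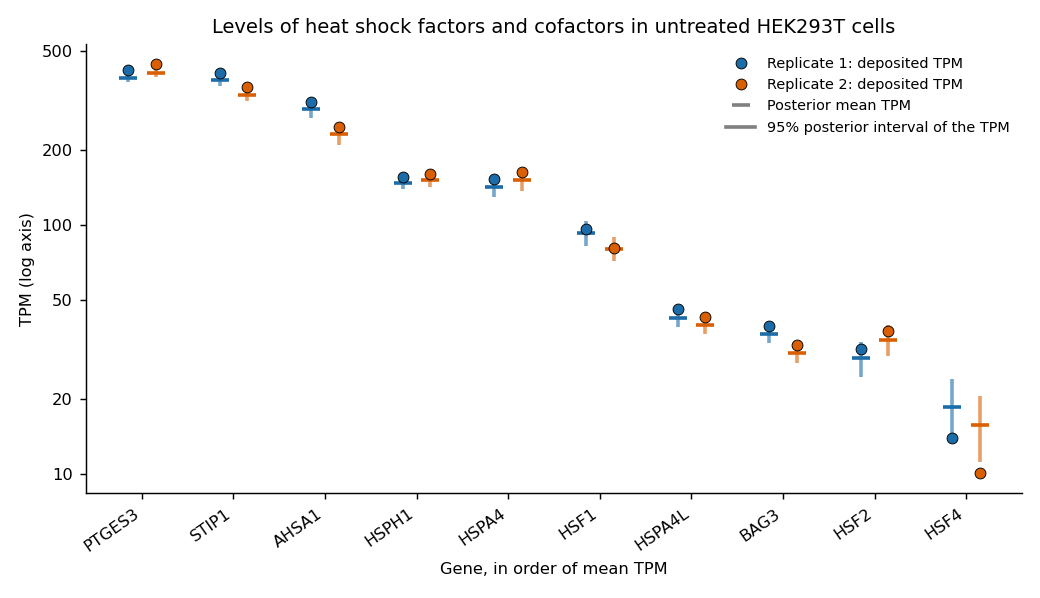
TPM (log axis) of each gene in each replicate as deposited (points), with the posterior mean TPM (short bars) and the 95% posterior interval of the TPM (lines). PTGES3 and STIP1 lie above 350 in both replicates and HSF4 below 15, and the points of PTGES3 and STIP1 lie above their own intervals in both replicates.

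Of the 9 pairs of neighbours in this order, 7 had replicates that did not overlap. With 2 values against 2 an exact two-sided permutation test cannot give a p below 0.333, so the order is described by ranges alone. The pairs whose values overlapped were HSPH1 with HSPA4, and BAG3 with HSF2. PTGES3 stood only just above STIP1, since its lower value was 418 and the higher value of STIP1 was 406. HSPA4L and BAG3 were also close, with a lowest value of 42.7 for HSPA4L and a highest value of 39.2 for BAG3. The widest step was between HSF2 and HSF4, whose means differed 2.87-fold.

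The heat shock factors came first in the regulatory chain but not in level. HSF1 (chromosome 8) is the factor that drives chaperone induction after heat. It had a TPM of 96.1 in replicate 1 and 80.6 in replicate 2, from 1061 and 981 estimated counts, and stood at percentile 87.3. HSF2 (chr6:122720696-122754264, plus strand), a factor known for roles in development that can pair with HSF1, had a TPM of 31.6 and 37.3 from 478 and 521 counts, at percentile 64.9. HSF4 (chr16:67198584-67203848, plus strand), best known from the lens of the eye, had a TPM of 13.9 and 10.1 from 74.2 and 39.3 counts, at percentile 34.0. HSF1 was higher than HSF2, and HSF2 higher than HSF4, in each replicate, and the ranges of the 3 genes did not overlap.

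Of the TPM that the 3 factors summed to (142 and 128), HSF1 held 65.4% ± 3.46, HSF2 25.7% ± 4.85 and HSF4 8.86% ± 1.39 (SD, n = 2). HSF2 was higher in replicate 2 while HSF1 and HSF4 were lower there, so the share of HSF2 was 22.3% in replicate 1 and 29.2% in replicate 2. The share of HSF4 depended on the quantity used. In CPM, which does not correct for length, it was 3.57%, and in posterior mean TPM it was 12.6%.

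Of 3 other genes of the family that were looked up, HSFX2 had no row. HSF5 had 0 counts in replicate 1 and 1 count in replicate 2, and HSFX1 had a TPM of 1.14 and 0.76, so neither was detected. HSBP1, whose product binds the trimers of HSF1, had a TPM of 107 and 114, above HSF1 in both replicates. HSBP1L1, a gene named for its likeness to HSBP1, had 12.2 and 11.4.

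**Figure D2:**
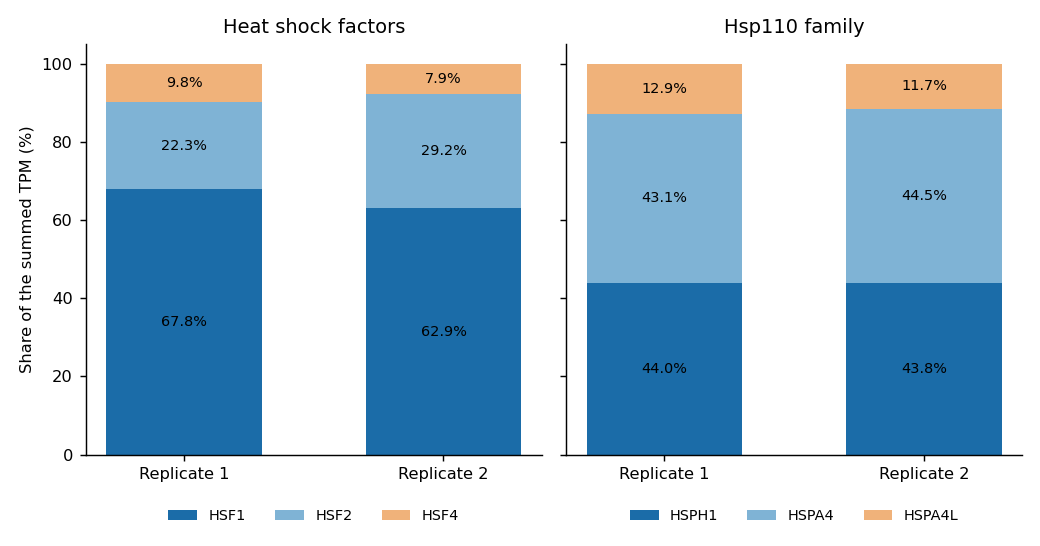
Share of the summed TPM (%) held by each gene in each replicate, for the heat shock factors (left) and the Hsp110 family (right). HSF1 holds over 60% in both replicates, and HSPH1 and HSPA4 hold nearly equal shares.

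HSF4 was the gene whose level was least certain, and its reads were compared with those of an overlapping gene. A protein-coding gene for which no symbol was found (ENSG00000265690, chr16:67197288-67199718) overlaps HSF4 on the same strand. Of the 50 nt stretches of the HSF4 transcripts 23.7% also occur in transcripts of that gene, the highest share of the 10 genes. RSEM shares such reads out, and it gives a posterior SD that describes how uncertain the sharing is. For HSF4 this was 6.45% of the posterior mean count in replicate 1 and 9.45% in replicate 2. HSF4 was the 1 gene of the 10 above 1% in both replicates, against 16.7% of detected protein-coding genes.

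HSF4 had 74.2 counts in replicate 1 and 39.3 in replicate 2, whereas the overlapping gene had 10.5 and 27.1. The genes moved in opposite directions, and their sum was 84.7 and 66.4 counts. In CPM from the estimated counts the ratio of replicate 1 to replicate 2 was 1.80 for HSF4 alone and 1.22 for the sum. The posterior mean counts of HSF4 were 69.3 and 47.2, closer to each other than its estimated counts. HSF4 took 87.6% of the sum in replicate 1 and 59.2% in replicate 2. Whether the sharing of reads moved the value of HSF4 was not tested. The weighted transcript length of HSF4 was also unlike between the libraries, at 762 and 591 nt, which are both far below its longest transcript of 2289 nt.

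**Figure D3:**
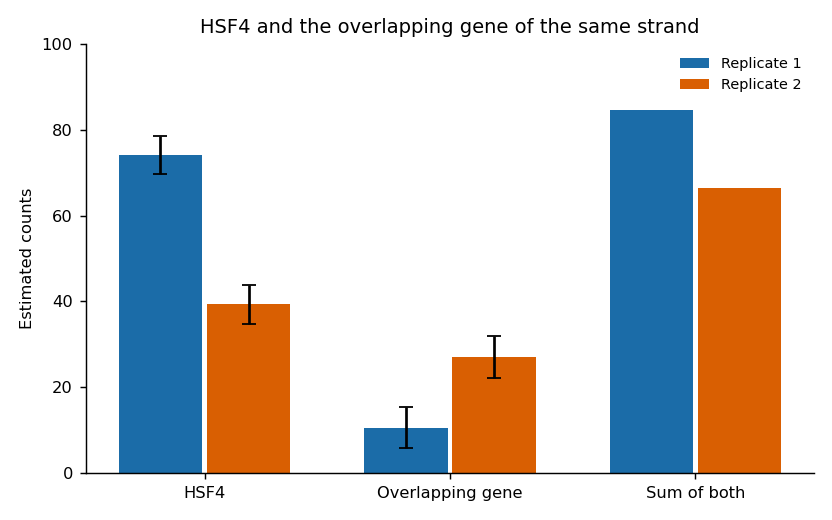
Estimated counts of HSF4, of the gene that overlaps it on the same strand and of their sum in each replicate. Bars show the posterior SD for the single genes, drawn around the estimated count although the SD belongs to the posterior mean count. For HSF4 that mean was 69.3 in replicate 1 and 47.2 in replicate 2. HSF4 is higher in replicate 1 and the overlapping gene is higher in replicate 2.

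The Hsp110 genes encode large relatives of Hsp70 that exchange its nucleotide and hold unfolded proteins in solution. HSPH1 (chr13:31709110-31736525, minus strand), also called HSP105, had a TPM of 156 and 160 from 3361 and 3219 counts. HSPA4 (chr5:132387705-132442141, plus strand) had a TPM of 153 and 162 from 4543 and 4250 counts. HSPH1 was above HSPA4 in replicate 1 and below it in replicate 2. The means of 158 ± 2.78 and 158 ± 6.65 (SD, n = 2) could not be ordered. Both stood at percentile 94.2.

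HSPA4L (chr4:128702976-128761888, plus strand) was lower, with a TPM of 45.9 and 42.7 from 1270 and 1174 counts, at percentile 72.4. HSPH1 held 43.9% ± 0.102 of the summed TPM of the family, HSPA4 43.8% ± 0.976 and HSPA4L 12.3% ± 0.874 (SD, n = 2). Each share differed by less than 2 percentage points between the replicates. The sum of the family was a TPM of 355 and 365.

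The reads of HSPH1, HSPA4 and BAG3 were placed without ambiguity. Their estimated counts were whole numbers in both replicates, their posterior SD was 0, and none of their 50 nt stretches occurred in the transcripts searched of another gene. HSF2 and AHSA1 also had whole counts, which makes 5 of the 10 genes, against 50.6% of detected protein-coding genes. HSF2 shares 5.71% of its stretches with a processed pseudogene (ENSG00000257350) that had 0 counts in both replicates. HSPA4L shares 2.56% of its stretches with 337 genes in the same sense and 7.84% with 376 genes in the antisense, the highest antisense share of the 10 genes, and its longest transcript is 10608 nt. HSF1 and DGAT1, on the opposite strand, share 1.62% of the stretches of HSF1. Strand use in counting is not stated by any source here.

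BAG3 (chr10:121410892-121437331, plus strand) encodes a cofactor that resets Hsp70 and links it to the small heat shock proteins and to autophagy. It had a TPM of 39.2 and 32.9 from 693 and 569 counts, at percentile 66.4, and its range overlapped that of HSF2. All 5 of the other BAG genes were detected too. BAG6, which guards proteins with exposed membrane segments, was the highest of them at a TPM of 220 ± 4.29 (SD, n = 2), and BAG2 the lowest at 19.0 ± 1.04 (SD, n = 2). Of the 8 small heat shock protein genes with a row, 1 was detected. That was HSPB1, with a TPM of 183 and 177, while HSPB8, known to form a complex with BAG3, had a TPM of 0.70 and 0.40 from 11 and 6 counts. CRYAB, a small heat shock protein of muscle and lens, had 2 counts and 1 count.

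Among the 10 genes the cofactors of Hsp90, STIP1, PTGES3 and AHSA1, were the most abundant in TPM. STIP1 (chr11:63952744-63972015, plus strand) had a TPM of 406 and 356 from 5444 and 4845 counts, at percentile 98.1. PTGES3 had a TPM of 418 and 440 from 4278 and 4480 counts, at percentile 98.4. AHSA1 (chr14:77924213-77935815, plus strand) had a TPM of 310 and 246 from 1701 and 1460 counts, at percentile 97.3. STIP1 and AHSA1 were higher in replicate 1 and PTGES3 in replicate 2. In CPM the order was another. STIP1 had 514 and 480 CPM, HSPA4 429 and 421, PTGES3 404 and 443, HSPH1 317 and 319, and AHSA1 161 and 144. AHSA1 had the shortest weighted length of these genes at 784 and 875 nt.

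Few reads were allotted to the pseudogene copies. The 5 copies of PTGES3 had 10.4 counts in replicate 1 and 5.12 in replicate 2 in sum, of which PTGES3P1, with the most identical stretches, had 7.38 and 3.11. PTGES3P3, the copy that is identical to PTGES3 in the stretch printed above, had 0 in both, with a posterior SD of 1.6 and 1.13 counts. The posterior SD of the PTGES3 count was 2.46 and 2.10 counts, or 0.0575% and 0.0469% of it. The copy STIP1P3 had 0 and 1.08 counts beside the 5444 and 4845 of STIP1.

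Of the 16 other Hsp90 cofactor genes with a row 15 were detected, and the median TPM of the 16 was 57.2. CDC37, which brings kinases to Hsp90, was the highest at a TPM of 238 ± 7.96 (SD, n = 2), below AHSA1 in both replicates. UNC45B, a myosin chaperone of muscle, had 1 count and 0 counts and was not detected, while its relative UNC45A had a TPM of 59.8 and 55.4. All 8 other Hsp70 cofactor genes were detected, from SIL1 at 26.2 ± 6.17 to ST13, also called HIP, at 451 ± 28.0 (SD, n = 2). Their median TPM was 86.5. ST13 was above PTGES3 in replicate 1 and below it in replicate 2. Of 7 other Hsp70 genes, those not counted in the cytosolic list used below, 6 were detected. The mitochondrial form HSPA9 was highest at 584 ± 52.1 (SD, n = 2), and HSPA12B was not detected at a TPM of 0.86 and 0.56.

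Cofactors were then set against the chaperones they serve, within each library. The 6 genes listed as cytosolic Hsp70 summed to a TPM of 1966 and 1916, of which HSPA8, the constitutive form, had 1411 and 1410. HSPA6, the strictly heat-induced form, had 0 counts and 2 counts. The other heat-inducible pair was not near 0. HSPA1B had a TPM of 546 and 502 and HSPA1A 4.83 and 1.54, and since these genes are nearly identical, how the reads split between them is uncertain. HSPA1L was below a TPM of 1 in both replicates. HSP90AA1 and HSP90AB1, the cytosolic Hsp90 genes, summed to 1883 and 1881. In TPM the pools of Hsp70 and Hsp90 transcripts were thus close, with 97.0 ± 1.66 TPM of Hsp90 per 100 TPM of Hsp70 (SD, n = 2). In estimated counts, which are not divided by length, they were further apart. Replicate 1 had 20538 for HSPA8 and 9558 for HSPA1B, against 18264 for HSP90AA1 and 20377.5 for HSP90AB1.

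For every 100 TPM of Hsp90 there were 22.8 ± 0.852 TPM of PTGES3, 20.3 ± 1.88 of STIP1 and 14.8 ± 2.40 of AHSA1 (SD, n = 2). PTGES3 exceeded STIP1 in each replicate, with 22.2 against 21.6 in replicate 1 and 23.4 against 18.9 in replicate 2. For every 100 TPM of Hsp70 there were 18.6 ± 0.704 TPM of Hsp110 genes, 19.6 ± 1.49 of STIP1 and 1.86 ± 0.197 of BAG3 (SD, n = 2). The Hsp110 sum and STIP1 overlapped, with 18.1 and 19.1 against 20.7 and 18.6. HSF1 stood at 4.69 ± 0.579 per 100 TPM of Hsp90 (SD, n = 2). These values depend on the unit and on the chaperone genes counted. In CPM the order of PTGES3 and STIP1 turned, with 11.5 against 13.5 per 100 of Hsp90, AHSA1 stood at 4.16, and the Hsp110 genes at 30.5 per 100 of Hsp70. Against HSP90AB1 alone the TPM ratios were 40.3 for PTGES3, 35.7 for STIP1 and 26.0 for AHSA1. These are ratios of transcripts, and protein was not measured.

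**Figure D4:**
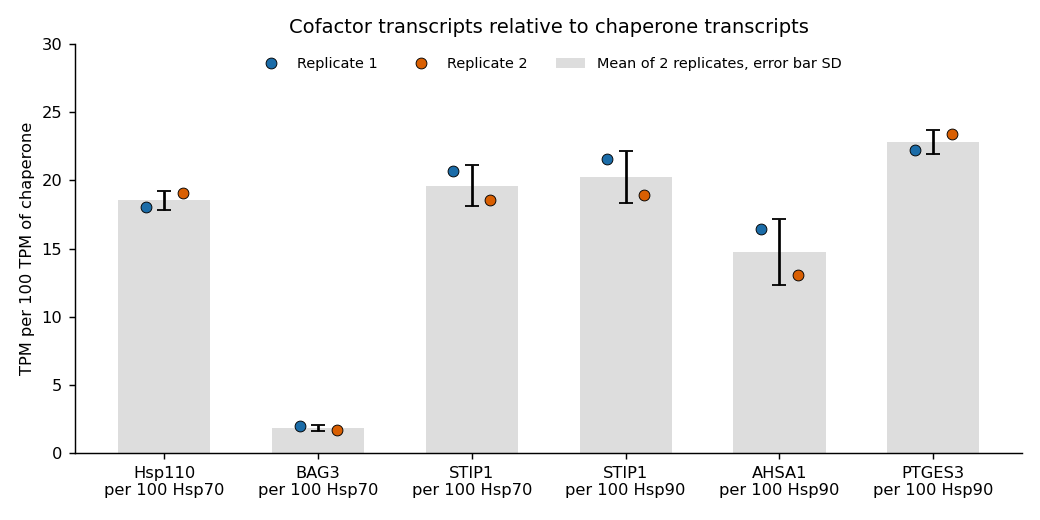
TPM of each cofactor per 100 TPM of cytosolic Hsp70 or of HSP90AA1 with HSP90AB1, by replicate (points), with the mean (bars from 0) and SD (error bars) of 2 replicates. BAG3 lies near 2 and the other cofactors between 13 and 24.

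The replicates were compared gene by gene to learn which levels repeat. Rounded counts were set against the scaled library sizes in an exact binomial test, two-sided, with Benjamini-Hochberg adjustment over 17920 genes, which shows where reads differ beyond their sampling. The test is of these libraries and not of conditions. Of the 10 genes 2 differed at an adjusted p under 0.05, against 3.86% of all genes tested. Without adjustment 6 of the 10 had a p under 0.05, against 13.3% of all genes. They were PTGES3, STIP1, HSF4, AHSA1, BAG3 and HSF2. The test finds smaller differences where counts are higher, and the median percentile of the 10 genes in level was 90.8. The shares of all genes are not matched for count, and whether level accounts for the difference was not tested.

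PTGES3 had 404 CPM in replicate 1 (95% exact binomial interval 392 to 416, counting error only) and 443 in replicate 2 (430 to 457). The binomial test gave an adjusted p of 0.000309. The intervals did not overlap, and the ratio of replicate 1 to replicate 2 was 0.911. STIP1 went the other way with 514 CPM (500 to 528) and 480 CPM (466 to 493), a ratio of 1.07, and its adjusted binomial p was 0.0391. That call is lost when genes with as little as 1 summed count are tested as well, with an adjusted p of 0.0669. HSF4 had 7.0 CPM (5.49 to 8.77) and 3.89 CPM (2.74 to 5.28) and missed the threshold with an adjusted binomial p of 0.0597. The test used its estimated counts, which lay further apart than its posterior mean counts. AHSA1, BAG3 and HSF2 had adjusted binomial p-values of 0.101, 0.159 and 0.283.

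The other 4 genes had nearly the same share of reads in both libraries. HSPH1 had 317 CPM (307 to 328) and 319 CPM (308 to 330), and HSPA4, HSPA4L and HSF1 had ratios of 1.02, 1.03 and 1.03. Their adjusted binomial p-values were 0.907 or above, which does not show that they were equal.

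In TPM the same comparison came out unlike that in reads. RSEM weights the length of a gene by the abundance of its transcripts, so the effective length, the number of positions at which a read can start, is estimated anew in each library. It differed by over 5% between the replicates for HSF1, HSF4, HSPA4, STIP1 and AHSA1, 5 of the 10 genes, against 51.8% of detected protein-coding genes. In HSF1 the reads gave a ratio of 1.03, while its effective length was 1481 nt in replicate 1 and 1695 nt in replicate 2, a ratio of 1.14, and the TPM ratio was 1.19.

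AHSA1 had a ratio of 1.11 in CPM and of 1.26 in TPM, with effective lengths of 736 and 827 nt. HSPA4 turned direction, from 1.02 in CPM to 0.942 in TPM, as its effective length went from 3983 to 3645 nt. BAG3 kept nearly the same ratio in both, 1.16 in CPM and 1.19 in TPM. For HSF4 the length moved against the reads, so that its TPM ratio of 1.38 was smaller than its CPM ratio of 1.80.

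**Figure D5:**
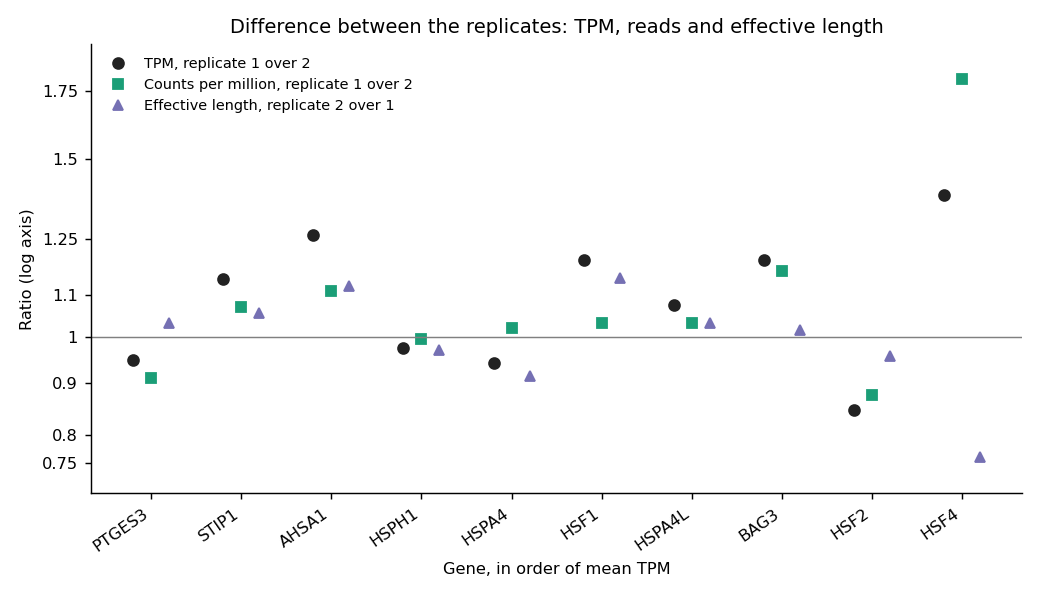
Ratio between the replicates (log axis) for each gene: TPM and CPM of replicate 1 over replicate 2, and effective length of replicate 2 over replicate 1. HSF1 and AHSA1 have TPM ratios above their CPM ratios, and HSF4 has the highest CPM ratio at 1.80 and the lowest length ratio at 0.760.

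On the log2(TPM + 1) scale the median absolute difference between the replicates was 0.21 for the 10 genes, from 0.04 for HSPH1 to 0.43 for HSF4. It was 0.12 for detected protein-coding genes and 0.14 for all detected genes. When TPM was computed again with 1 effective length in both replicates, that of the authors' pooled table, the median of the 10 genes was 0.12 and that of detected protein-coding genes was 0.09. This setting was chosen after the data were seen. The TPM ratio came nearer to 1 for 8 of the 10 genes, against 60.5% of detected protein-coding genes, and the exceptions were PTGES3 and HSF4. HSF1 then had a TPM of 89.6 and 85.3, and AHSA1 295 and 261.

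The TPM as deposited is the maximum likelihood value, and the table also gives a posterior mean and a 95% interval of the TPM. STIP1 and PTGES3 lay above their own interval in both replicates, 2 of the 10 genes against 12.2% of detected protein-coding genes. The interval of STIP1 was 362 to 400 in replicate 1, and that of PTGES3 was 373 to 402. HSF4 lay below its interval of 11.2 to 20.5 in replicate 2, and its posterior mean TPM of 18.6 and 15.7 was above the deposited value in both replicates. HSPH1 and HSPA4L lay above theirs in replicate 1 alone, so that 5 of the 10 genes lay outside in either replicate, against 17.5% of detected protein-coding genes. These shares are not matched for level, and whether level accounts for the difference was not tested. The width of the interval was least for PTGES3, at 3.78% and 3.62% of the posterior mean to either side, and greatest for HSF4, at 27.6% and 29.9%.

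Since heat shock factors act through promoter letters, the promoters were searched for them. RefSeq promoters (GRCh38.p14, 250 bases before to 50 after each start) were found for 9 of the 10 genes, 15 windows in all, and HSF1 was not among them. The motif GAANNTTC or TTCNNGAA, each its own reverse complement, so that both strands were searched, was in 1 window each of HSPA4L and STIP1. They are printed with the motif in capitals, HSPA4L at chr4:127782141-127782170 and STIP1 at chr11:64186173-64186202, beside HSPA8 at chr11:123062170-123062199 on the minus strand, a chaperone gene with the longer form.
HSPA4L: tttccagatctTTCTCGAAcccgcagcttc
STIP1: cttctagtaggTTCCAGAAggcggcgcgtg
HSPA8: cgggccccTTCTGGAAGGTTCtaagatagg

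The motif began 170 bases before the start in HSPA4L, at base 14 after it in STIP1 and 55 bases before it in HSPA8. The short motif is held by 13.5% of 35116 promoter windows and by 16.2% of the genes, so 2 of 9 genes is near the background. The longer form, GAANNTTCNNGAA or TTCNNGAANNTTC, which contains the short one, was in 0.49% of windows and 0.608% of genes, in none of the 9 genes, and in a window of each of HSPA8, HSP90AA1 and HSP90AB1. A match describes letters only, and no match says only that these letters are not in this window.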

How the data were processed

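The authors trimmed reads with Trimmomatic 0.36 and aligned them to GRCh37 with STAR 2.6.1c, per the submitters' processing notes. The study's methods name featureCounts, but the notes name RSEM 1.3.1 and the columns are those of RSEM. The deposited estimated counts share reads among the genes they fit. TPM and FPKM values were made by the authors. Posterior SDs and interval bounds are deposited scores, and a pooled table was used for its lengths and as an alternative.

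Members and lists were chosen with earlier results of these data known. Symbols and coordinates came from GENCODE release 44 on GRCh37 (96.1% of identifiers matched), and 93.1% of 196317 transcript identifiers were found for the search of shared 50 nt stretches, promoters from RefSeq. Estimated counts were rounded and tested with scipy 1.17.1 against library sizes scaled by TMM (edgeR 4.0.16, R 4.3.3) over genes passing its filterByExpr function, for genes whose counts summed to 10 or more. The test was checked on data simulated with sampling error alone around set levels. Such data cannot show how it behaves under further spread between libraries. CPM used total estimated counts. Values could be named for the 10 genes, for the highest, the lowest and undetected genes of each list, for pseudogene copies and for overlapping genes, and not all of these are printed. HSPA8, HSP90AA1, HSP90AB1, HSPA1A, HSPA1B and UNC45A are list genes named for their role. Alternatives were other thresholds, units, lengths, normalizations, filters, pseudocounts and leaving out each replicate.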

Additional observations from a re-analysis of the deposited data

How the results depend on the processing

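No paired analysis was possible because there is only 1 group. Depth limits HSF4 most, with under 100 estimated counts in each replicate. The numbers of the 10 genes and of the listed genes detected, and the number of neighbours apart, stayed within 1.5 times under each threshold and unit tried, and without either replicate in turn the listed genes detected were 45 to 47. The number of the 10 genes differing between the libraries was 1 with no filter and 2 under the 4 other settings. The median percentile was 92.4 among all detected genes, 94.1 among all protein-coding genes and 90.2 to 91.2 without either replicate. The distance from centre to bound of the TPM interval, a measure of another kind than the posterior SD, was 8.81% against a median posterior SD of 0.0295%.

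In CPM the Hsp110 shares were 49.3% for HSPA4, 36.9% for HSPH1 and 13.7% for HSPA4L, and the shares of HSF2 and HSF4 were 31.7% and 3.57%. In CPM the ratios per 100 were 30.5 for Hsp110, 2.16 for BAG3, 13.5 for STIP1 on Hsp90, 4.16 for AHSA1 and 11.5 for PTGES3. Against HSPA8 or HSP90AB1 alone they were 25.5, 2.56, 35.7, 26.0 and 40.3. In posterior mean TPM HSPH1 held 44.3% and HSF4 12.6%. With the pooled effective length, an added setting, HSPH1 held 43.8% and the median difference between replicates was 0.12. CPM omits length and the single-gene ratios a smaller sum by construction, and the cause of the other changes was not tested. Without either replicate the shares were 43.1 to 44.5% for HSPA4, 43.8 to 44.0% for HSPH1, 11.7 to 12.9% for HSPA4L, 62.9 to 67.8% for HSF1, 22.3 to 29.2% for HSF2 and 7.88 to 9.84% for HSF4. The ratios were 18.1 to 19.1 for Hsp110, 1.72 to 2.00 for BAG3, 18.9 to 21.6 for STIP1, 13.1 to 16.5 for AHSA1 and 22.2 to 23.4 for PTGES3. Mean TPM of the 10 genes moved by over 1 SD between replicates for 10 when TPM was rescaled to protein-coding genes, which raises every value by construction, and for 5 as posterior mean TPM.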
